A study of Mus musculus with 6 samples.

Results

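The genes described here are 6 Toll-like receptors (Tlr1, Tlr2, Tlr4, Tlr6, Tlr7 and Tlr13), the co-receptors Cd14 and Ly96, and the adaptors Myd88 and Ticam1. They were taken by name, 10 of 19936 genes on the arrays, each with a single probe set that names that gene alone, and all 10 passed the level filter that kept 11516 genes. Adherent cells were measured on 6 arrays, 1 each for heme at 6, 24 and 72 h and for vehicle at 6, 24 and 72 h. All cultures, the vehicle ones included, came from bone marrow of Spic(igfp/igfp) mice, cultured in GM-CSF at 20 ng/ml, a growth factor for myeloid cells. On day 6 they received 80 µM heme (the dose is typed as µm in the labels) or vehicle, a salt solution with ammonium hydroxide. No wild-type culture was analysed here, and the sources used here do not give what the igfp allele carries. Whether different arrays represent different mice is not stated in the labels.

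Toll-like receptors are membrane proteins that sense microbial molecules and start inflammatory transcription in macrophages. TLR2 pairs with TLR1 or TLR6 to sense lipoproteins at the cell surface, whereas TLR4, with MD-2 (encoded by Ly96) and CD14, senses lipopolysaccharide and is also known as a receptor through which heme can act. TLR7 and TLR13 sense RNA inside endosomes. The adaptor MyD88 serves most of these receptors, and TRIF, encoded by Ticam1, serves TLR3 and TLR4.

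The labelled cell type was checked first. Macrophage markers were high on every array, among them Cd68 (11.29 to 12.01 on the log2 scale) and Lyz2 (12.92 to 13.18). Of 8 dendritic cell markers, Flt3 and Zbtb46 lay below the level filter of 5.37, the median of all values, on all arrays, and the other 6 passed it, among them Itgax (10.48 to 11.14) and the antigen presentation genes Cd74 (12.21 to 12.54) and H2-Ab1 (11.70 to 12.07), which macrophages can also express. One of them, the chemokine receptor gene Ccr7, rose with heme (1.16; limma, adjusted p = 0.0279). All 6 measured B, T and NK cell markers lay below the filter on all arrays. Neutrophil transcripts were present: the mean level of 9 neutrophil markers was 8.09, 7.43 and 5.87 on the heme arrays at 6, 24 and 72 h, against 7.92, 6.28 and 5.75 on the vehicle arrays. Spic and Hmox1, 2 genes known to answer to heme, were higher with heme at all 3 time points, by 3.88 ± 0.47 and 2.59 ± 0.28 on the log2 scale (SD over n = 3 time points).

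The promoter windows below are shown because Tlr2 changed with heme, Tlr13 with time in culture and Myd88 with neither. They are RefSeq sequences of build GRCm38.p6, from 250 bases before to 50 after an annotated transcript start. The search covered 8 such windows of 6 of the 10 genes (Tlr1, Tlr2, Tlr6, Tlr13, Myd88 and Ticam1). Cd14 was left out of the search, so nothing is said here of its promoter. Capitals mark letters that match one of 5 motifs searched on both strands: the NF-kB site, AP-1 (TGANTCA), PU.1 (GAGGAA), the antioxidant response element core (TGANNNNGC) and the interferon-stimulated response element (by name). The windows are chr3:83841559-83841858 on the minus strand for Tlr2, chrX:106143025-106143324 on the plus strand for Tlr13 and chr9:119339969-119340268 on the minus strand for Myd88.
Tlr2: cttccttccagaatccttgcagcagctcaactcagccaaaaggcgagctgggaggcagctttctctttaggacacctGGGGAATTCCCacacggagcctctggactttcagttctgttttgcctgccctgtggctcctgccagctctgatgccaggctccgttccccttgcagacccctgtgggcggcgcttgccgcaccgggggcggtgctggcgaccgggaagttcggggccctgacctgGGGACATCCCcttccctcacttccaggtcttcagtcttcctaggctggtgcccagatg
Tlr13: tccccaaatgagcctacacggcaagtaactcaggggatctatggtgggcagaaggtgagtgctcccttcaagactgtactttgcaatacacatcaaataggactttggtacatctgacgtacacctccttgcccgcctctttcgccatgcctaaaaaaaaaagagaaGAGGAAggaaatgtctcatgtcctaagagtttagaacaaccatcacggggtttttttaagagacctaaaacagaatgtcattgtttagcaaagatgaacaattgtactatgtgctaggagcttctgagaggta
Myd88: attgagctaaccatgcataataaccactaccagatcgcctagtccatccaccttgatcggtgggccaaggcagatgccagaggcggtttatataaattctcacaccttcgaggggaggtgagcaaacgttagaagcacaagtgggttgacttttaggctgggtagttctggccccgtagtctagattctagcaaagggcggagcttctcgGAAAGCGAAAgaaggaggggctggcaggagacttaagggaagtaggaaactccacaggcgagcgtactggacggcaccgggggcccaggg
The Tlr2 window held 2 stretches of NF-kB letters. In the first, matches started at -173 and, overlapping it, at -172 from the transcript start (GGGGAATTCC and GGGAATTCCC), and in the second a match started at -8 (GGGACATCCC). NF-kB letters stood in 1 of the 8 windows, and 8.46% of 32851 windows in the same table held them. The capitals in Tlr13 are a PU.1 match at -83, a motif held by 28.3% of all windows, and those in Myd88 are an interferon element at -40, held by 3.44%. These are matches of letters and no measurement of binding.

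Over the 3 time points 2 of the 10 genes, Cd14 and Tlr2, rose with heme and 0 fell. The other 8 did not pass the test, and over all 11516 genes 1.13% were higher and 0.59% lower by the same test (limma with treatment and time as terms, two-sided, adjusted p below 0.05). With 1 array per treatment and time, time points stand in for replicates. These p-values set the mean difference against the variation of the heme minus vehicle difference from one time point to another. That variation is mostly pooled over all genes (7.17 prior against 2 residual degrees of freedom). In bulk RNA, fewer cells of a type and less RNA per cell cannot be told apart.

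Cd14, the co-receptor that hands lipopolysaccharide to TLR4, had levels of 10.46, 11.32 and 11.23 on the heme arrays at 6, 24 and 72 h, against 9.53, 9.92 and 10.28 on the vehicle arrays. Every heme array lay above every vehicle array. The heme minus vehicle differences of 0.93, 1.40 and 0.95 correspond to 1.91-fold, 2.63-fold and 1.94-fold. Their mean was 1.09 ± 0.26 (SD, n = 3 time points; 95% interval 0.76 to 1.43; limma, adjusted p = 0.00825).

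Tlr2, the lipoprotein receptor, had levels of 10.21, 10.32 and 9.77 on the heme arrays at 6, 24 and 72 h, against 9.40, 9.47 and 9.26 on the vehicle arrays. Here too the groups did not overlap, although the 72 h heme array was the lowest of the heme arrays. Differences of 0.81, 0.85 and 0.51, or 1.75-fold, 1.80-fold and 1.42-fold, gave a mean of 0.72 ± 0.18 (SD, n = 3 time points; 95% interval 0.41 to 1.04; limma, adjusted p = 0.0394).

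Both calls needed the 24 h pair of arrays, and so did calls over all genes. Of 11516 genes 130 rose and 68 fell in the main fit, and 11 rose and 1 fell without that pair. Without it Cd14 differed by 0.94 and Tlr2 by 0.66, and neither passed (limma, adjusted p = 0.226 and 0.497, with 1 residual degree of freedom). Of the 8 neutrophil markers past the level filter, 6, 8 and 4 were higher with heme at 6, 24 and 72 h. Over all 11516 genes 4205, 5387 and 6369 were higher at these times. The median differences of the 8 neutrophil markers were 0.22, 1.4 and -0.01. S100a8 differed by 0.28, 1.97 and 0.71 at 6, 24 and 72 h and S100a9 by 0.05, 2.13 and 1.05. The heme test was passed by 0 of 8 neutrophil markers past the level filter. An unadjusted p below 0.05 (limma) was found for 3 of them, beside 10.6% of all genes. The mean level of the 9 markers was given above for each array. Their part in the differences of Cd14 (0.93, 1.40 and 0.95) and Tlr2 (0.81, 0.85 and 0.51) was not tested. Over all 11516 genes, 5.4% had every heme array above every vehicle array and 5.85% had the reverse. Among the 10 genes Cd14 and Tlr2 were of the first kind and 0 of the second.

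**Figure D1:**
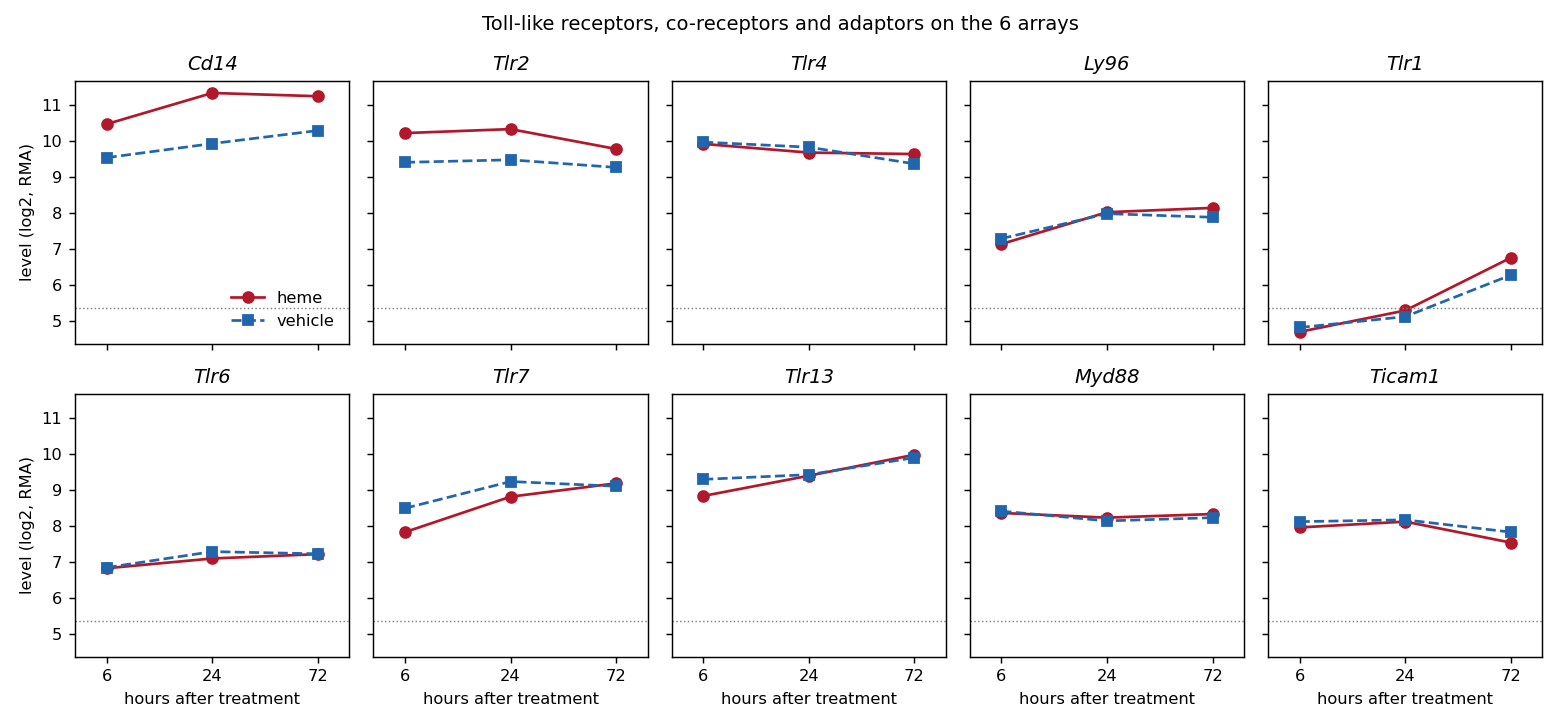
Level of each of the 10 genes (log2 scale) against hours after treatment, with heme arrays as red circles, vehicle arrays as blue squares, 1 array per point, and the level filter of 5.37 as a dotted line. The heme line lies above the vehicle line at every time for Cd14 and Tlr2, and for the other genes no same-time pair of arrays differs by more than 0.66.

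The other parts of the TLR4 receptor complex did not pass. Tlr4 itself had levels of 9.91, 9.67 and 9.63 on the heme arrays at 6, 24 and 72 h, against 9.96, 9.82 and 9.36 on the vehicle arrays. Its mean difference was 0.02 ± 0.22, with a 95% interval from -0.30 to 0.34 (limma, adjusted p = 0.982). Ly96, whose product binds the lipid part of lipopolysaccharide, had levels of 7.14, 8.02 and 8.14 with heme, against 7.29, 7.98 and 7.88 with vehicle. The groups overlapped for both genes, and the Ly96 interval ran from -0.27 to 0.37 (limma, adjusted p = 0.953).

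The partners of TLR2 did not pass either. Tlr6 had levels of 6.83, 7.10 and 7.22 on the heme arrays at 6, 24 and 72 h, against 6.85, 7.29 and 7.23 on the vehicle arrays, and its mean difference was -0.07 ± 0.10 (95% interval -0.37 to 0.23; limma, adjusted p = 0.933). Tlr1 was not shown to be above background at 6 or 24 h, with 4 of 6 arrays below the level filter. At 72 h it reached 6.76 with heme, against 6.28 with vehicle, a difference of 0.47 with no replicate check (over the 3 time points limma, adjusted p = 0.829).

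The endosomal receptors among the 10 genes had their lowest level on the 6 h heme array. So did Tlr6 and Ly96, and Tlr1 as measured below the filter. The share of all genes with their lowest level on that array is not given here. At 6 h 4205 of 11516 genes were higher with heme, and the median difference over all genes was -0.10. Tlr7 had levels of 7.83, 8.81 and 9.18 with heme at 6, 24 and 72 h, against 8.49, 9.23 and 9.10 with vehicle, so its differences were -0.66, -0.42 and 0.09. The mean of -0.33 ± 0.38 did not pass (95% interval -0.71 to 0.04; limma, adjusted p = 0.566). Tlr13 had levels of 8.83, 9.39 and 9.97 with heme, against 9.29, 9.42 and 9.89 with vehicle, and did not pass (mean -0.14 ± 0.29; 95% interval -0.48 to 0.20; limma, adjusted p = 0.871). A change of the heme difference with log time was tested for all genes. It was called for 0 of 11516 genes, with 1281 at an unadjusted p below 0.05 (limma), among which Tlr7 was the only one of the 10 (change of 0.73 between 6 and 72 h; limma, adjusted p = 0.438).

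Neither adaptor passed. Myd88 had levels of 8.36, 8.23 and 8.33 on the heme arrays, against 8.41, 8.14 and 8.23 on the vehicle arrays, and its 6 values spanned 0.27, the narrowest of the 10 genes. The interval of its mean difference ran from -0.25 to 0.34 (limma, adjusted p = 0.954). Ticam1 had levels of 7.96, 8.12 and 7.54 with heme, against 8.12, 8.17 and 7.83 with vehicle. It was lower with heme at all 3 time points by 0.05 to 0.29, did not pass (limma, adjusted p = 0.808), and its groups overlapped.

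The median difference of the 10 genes was -0.09, 0.00 and 0.18 at 6, 24 and 72 h, beside -0.10, -0.02 and 0.03 over all 11516 genes. At least 2-fold higher with heme were 0 of 10 genes at 6 h, 1 at 24 h (Cd14) and 0 at 72 h, against 0.964%, 1.42% and 1.25% of all genes. None of the 10 was 2-fold lower at any time, against 0.669%, 0.486% and 0.608% of all genes.

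**Figure D2:**
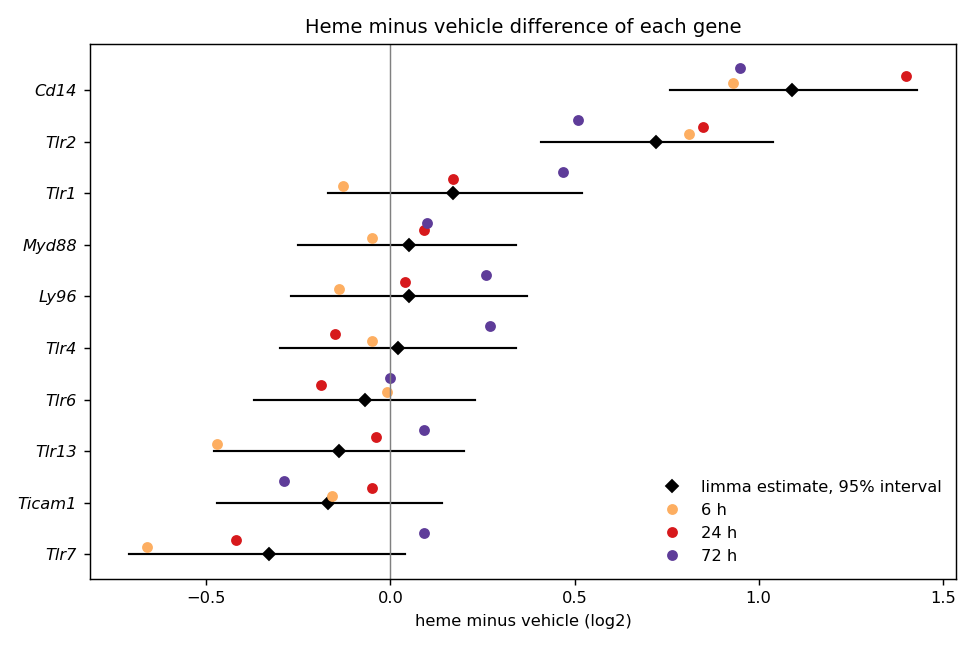
Heme minus vehicle difference (log2, horizontal axis) of each of the 10 genes, with coloured points for 6, 24 and 72 h and a black diamond with its 95% interval for the limma estimate over the 3 time points. The intervals of Cd14 (0.76 to 1.43) and Tlr2 (0.41 to 1.04) lie above 0 and the other 8 include 0.

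With time in culture, 5 of the 10 genes rose between 6 and 72 h over both treatments and 0 fell (limma, adjusted p below 0.05). Over all genes 3.06% rose and 3.53% fell in that comparison. They were Tlr1, Tlr7, Tlr13, Ly96 and Cd14, so receptors for lipoproteins, for RNA and a part of the lipopolysaccharide complex are among them. Tlr1 was measured 1.75 higher at 72 h than at 6 h, at least 1.15 with its 6 h levels set to the filter (limma, adjusted p = 9.79e-04). In the heme cultures that increase was at least 1.38 and in the vehicle cultures at least 0.91.

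Tlr7 was higher at 72 h by 0.97 (95% interval 0.51 to 1.43; limma, adjusted p = 0.0213), with 1.35 in the heme cultures and 0.60 in the vehicle cultures. Tlr13 was higher by 0.87 (95% interval 0.45 to 1.29; limma, adjusted p = 0.0237), with 1.15 in the heme cultures and 0.60 in the vehicle cultures. For both genes the larger increase went with the lower starting level on the 6 h heme array, and the difference in slope did not pass the test above, which has 1 residual degree of freedom and does not show equal slopes. Ly96 was higher by 0.80 (limma, adjusted p = 0.025), with 0.79 between 6 and 24 h, and Cd14 by 0.76 (limma, adjusted p = 0.0383).

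Tlr4, Tlr2, Tlr6, Myd88 and Ticam1 did not pass, with changes of -0.44, -0.28, 0.38, -0.10 and -0.36. Between 6 and 24 h 0 of the 10 genes passed, 4 had an unadjusted p below 0.05 in limma (Tlr1, Tlr7, Cd14 and Ly96), as did 12.9% of all genes. After adjustment 0.226% of all genes rose and 0.373% fell. Neutrophil markers went the other way, with 6 of 8 lower at 72 h than at 6 h, for instance S100a9 by -4.33. Of the 9 macrophage markers 2 rose, the receptors Csf1r (0.74) and Mertk (1.33). The stromal marker Dcn rose by 1.57, and 2 of 6 dendritic cell markers were lower at 72 h, Ciita by -1.12 and Dpp4, with 4 of 6 levels below the filter, by -1.42 as measured (limma, adjusted p = 0.00926, 0.00582 and 0.00283). The part of such shifts in the changes of the receptors was not tested. Without the 24 h pair only Tlr1 passed (limma, adjusted p = 0.00944), and Tlr7, Tlr13, Cd14 and Ly96 had adjusted p-values from 0.0792 to 0.091 in limma. That fit has 1 residual degree of freedom. The share of all genes that pass it is not given here, so the loss is not shown to be particular to these genes.

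Toll-like receptors outside the 10 genes were read from a list of 6, of which 4 had a probe set of their own. Tlr5 and Tlr11 had none, and Tlr12 lay below the level filter on all arrays. The 3 that passed the filter were the endosomal receptors Tlr3, Tlr8 and Tlr9. Tlr8, a relative of Tlr7, had levels of 6.83, 8.45 and 9.04 with heme at 6, 24 and 72 h, against 7.83, 8.78 and 9.17 with vehicle. Its difference was -1.0 at 6 h, and 0 of the 3 genes passed the heme test, and only Tlr8 had an unadjusted p below 0.05 (limma, adjusted p = 0.326), as did 10.6% of all genes. Tlr8 and Tlr3, the receptor for double-stranded RNA, rose between 6 and 72 h by 1.77 and 0.76 (limma, adjusted p = 0.00177 and 0.0336), whereas Tlr9, the receptor for unmethylated DNA, changed by -0.26 and did not pass (limma, adjusted p = 0.474). Unc93b1, which carries these receptors to endosomes, was higher by 0.88 (limma, adjusted p = 0.0125).

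**Figure D3:**
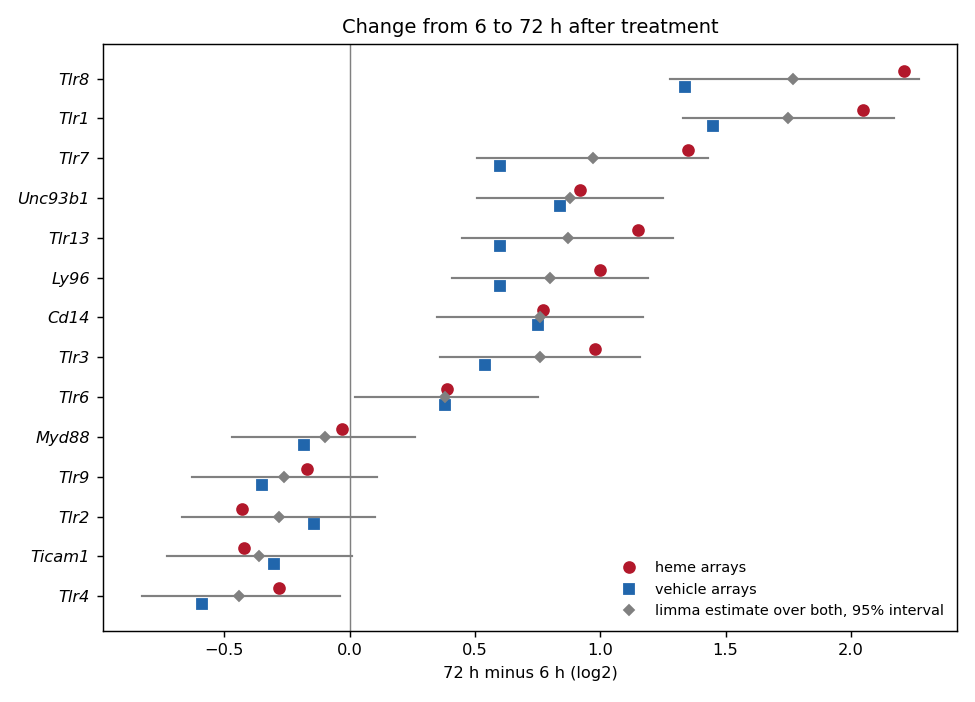
Level at 72 h minus level at 6 h (log2, horizontal axis) for the 10 genes with Tlr3, Tlr8, Tlr9 and Unc93b1, as red circles for the heme cultures, blue squares for the vehicle cultures and grey diamonds with 95% intervals for the limma estimate over both. Tlr8, Tlr1 and Tlr7 have the highest estimates (1.77, 1.75 and 0.97), and Tlr4 has the lowest (-0.44); Tlr1 values are as measured, with its 6 h levels below the filter.

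Among other adaptors, co-receptors and trafficking factors, 0 of 12 genes past the level filter passed the heme test. An unadjusted p below 0.05 (limma) was found for 2, beside 10.6% of all genes. These were Cd180 and Ly86, which together form a TLR4-like complex known to restrain TLR4 in macrophages. Cd180 had levels of 8.31, 8.62 and 9.38 with heme at 6, 24 and 72 h, against 9.07, 9.08 and 9.78 with vehicle (mean difference -0.54 ± 0.19; limma, adjusted p = 0.128). Ly86 had levels of 8.24, 8.76 and 9.02 with heme, against 9.13, 9.53 and 9.17 with vehicle (mean difference -0.60 ± 0.39; limma, adjusted p = 0.155). Each was lower with heme at every time point, and neither passed. The endosomal transporter Slc15a3 differed by -0.60 at 72 h (limma, adjusted p = 0.775).

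Kinases and ubiquitin enzymes below the adaptors showed 0 of 15 past the heme test, 3 having an unadjusted p below 0.05 (limma; Ikbke, Ikbkg and Tbk1), beside 10.6% of all genes. Tbk1, a kinase gene, had differences of 0.43, 0.11 and 0.66 at the successive times (limma, adjusted p = 0.341). The kinase Ikbke, which acts with TBK1 on IRF3, differed by 0.93, 0.84 and 0.40 at 6, 24 and 72 h (limma, adjusted p = 0.0523). Ikbkg, the regulatory subunit of the IkB kinase, differed by 0.38, 0.74 and 1.24 (limma, adjusted p = 0.0686), and the ubiquitin ligase Peli1 by 0.82 at 6 h and -0.11 at 24 h (limma, adjusted p = 0.705).

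Inhibitors of the pathway rose in 3 of 13 genes, with 0 falling, beside the 1.13% of all genes that rose. Irak3, a kinase-like protein that blocks signalling from MyD88, had levels of 8.66, 9.16 and 9.09 with heme at 6, 24 and 72 h, against 8.08, 8.17 and 8.12 with vehicle. All heme arrays lay above all vehicle arrays (mean difference 0.85 ± 0.23; limma, adjusted p = 0.0235). The deubiquitinase gene Tnfaip3 differed by 1.89, 1.53 and 0.50 (limma, adjusted p = 0.0286) and Nfkbia, which encodes the NF-kB inhibitor IkB alpha, by 1.63, 1.35 and 0.77 (limma, adjusted p = 0.0106). Tnip1, Zc3h12a and Socs1 did not pass, with mean differences of 0.38, 0.46 and 0.29. Among transcription factors 1 of 10 rose, Relb (0.89 ± 0.33; limma, adjusted p = 0.0279). Nfkb2 (1.11, 1.24 and 0.18 at 6, 24 and 72 h), Irf7 (at least 0.91 at 6 h) and Fos (-0.79 at 6 h) did not pass.

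Of 11 genes commonly assigned to the MyD88 arm 4 rose (Cxcl2, Il1b, Il6 and Cxcl1), beside 1.13% of all genes. The list medians were 1.73, 0.76 and 0.55 at 6, 24 and 72 h as measured. With levels below the filter set to it they were 0.75, 0.50 and 0.45, since the measured 6 h median is that of Il6, whose 6 h levels both lay below the filter. Cxcl1, a neutrophil-attracting chemokine, differed by 1.85, 2.15 and 1.28 (limma, adjusted p = 0.00191). Il6 passed on measured values (limma, adjusted p = 0.00125), but 5 of its 6 levels lay below the filter, and at 24 h it was at least 0.22 higher with heme. Il1a differed by 2.09, 0.50 and -0.48 and the chemokine Ccl4 by 0.75, -0.72 and -1.12, and neither passed. Tnf, a central inflammatory cytokine, differed by 2.69, 1.09 and 0.63 and did not pass either (limma, adjusted p = 0.0632).

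Of the genes commonly assigned to the TRIF and IRF3 arm 7 passed the level filter. Among these 1 rose, Ccl5, beside 1.13% of all genes. Ccl5 had levels of 10.20, 10.40 and 9.75 with heme, against 7.71, 7.17 and 8.38 with vehicle. The list medians were 1.35, -0.03 and -0.04 as measured, and 1.21, 0.00 and 0.00 with levels below the filter set to it. Ifit3, an antiviral gene, differed by 1.35, -0.56 and -0.56, and Ifit1 by at least 1.11 at 6 h with both later pairs below the filter. The chemokine Cxcl10 differed by 2.67 at 6 h and at least 0.28 at 24 h (limma, adjusted p = 0.234). Ifnb1, the interferon gene of this arm, lay below the filter on all arrays. Over all these lists 9 of 71 genes rose and 0 fell, beside 1.13% and 0.59% of all 11516 genes. When the 6 h arrays were left out 15 rose and 2 fell, beside 322 and 199 of all genes. Leaving out the 24 h pair gave 1 (Cxcl2) and 0, beside 11 and 1 of all genes. Leaving out the 72 h pair gave 12 and 1, beside 134 and 67 of all genes.

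**Figure D4:**
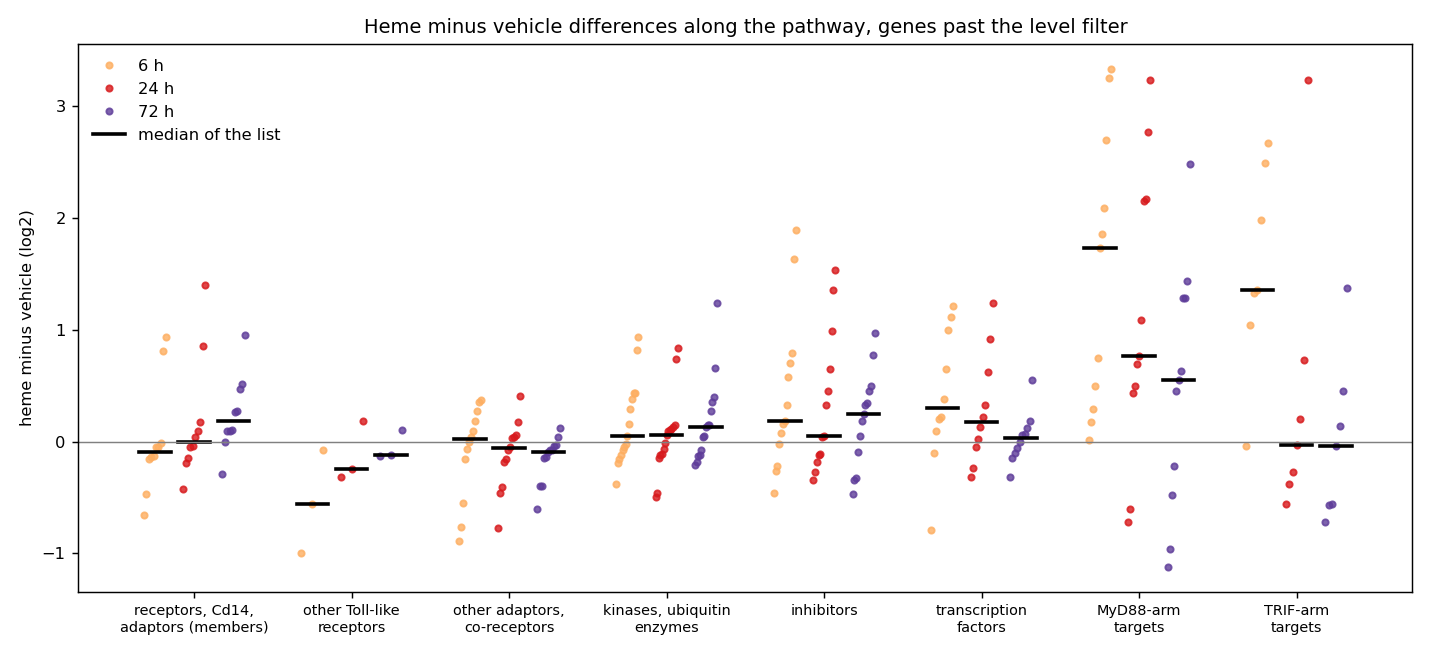
Heme minus vehicle difference (log2, vertical axis) of each gene past the level filter, by list from receptors to target genes, with orange, red and purple points for 6, 24 and 72 h and black bars for list medians. The 10 receptors, co-receptors and adaptors have medians of -0.09, 0.00 and 0.18, and the MyD88-arm targets 1.73, 0.76 and 0.55 as plotted, from measured values; with levels below the filter set to it, as for Il6, those targets have medians of 0.75, 0.50 and 0.45.

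The genes nearest in profile were sought for the 5 of the 10 genes whose unrounded levels spanned at least 1 on the log2 scale. Ly96, with a span that rounds to 1.0, fell short of this and was left out. The search took 10796 other protein-coding genes over the 6 arrays. It used the root mean square difference after each gene's own mean was subtracted. Nearest to Cd14 were the membrane metalloproteinase gene Mmp14 (0.16), Bcl3 (0.17), which encodes an IkB family protein, and the catalase gene Cat (0.20). For Tlr2 the nearest were Rbfox2, Src and Gsap (0.10 each). Tlr7 was nearest to Cyp2ab1 (0.05), Tk2 (0.08) and Txndc16 (0.10), Tlr13 to Chd3 (0.06), Gramd1b (0.08) and Treml1 (0.09), and Tlr1 to Igfbp4, Pdgfb (0.19 each) and Sash1 (0.21). With 6 arrays and so many genes, near profiles are a description only.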

How the data were processed

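The authors deposited log2 expression values per probe set, produced in ArrayStar with RMA and quantile normalization, per the series' design text and the submitters' processing notes, which name no versions. RMA compresses differences of dim probe sets. Array medians ran from 5.34 to 5.45 and pairwise correlations from 0.975 to 0.986. Of 35556 probe sets, 21789 named 1 gene, 1621 several and 12146 had no entry; those naming 1 gene were used, with symbols updated through the GRCm38.p6 gene table (21701 matched). Per gene the probe set with the highest mean was taken, and genes whose highest array reached 5.37 were kept. Levels below that value were set to it for bounds, written as "at least"; p-values rest on measured values.

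Differences were heme minus vehicle. limma 3.58.1 (R 4.3.3; lmFit and eBayes, two-sided, Benjamini-Hochberg over 11516 genes) was fitted with treatment and time, with 2 residual and 7.17 prior degrees of freedom. Deviations from the treatment means correlated between same-time arrays ( 0.562, 0.215 and 0.531 at 6, 24 and 72 h); the pairing comes from the times in the labels. The fit was tested on simulated data with known changes. The interaction with log time (1 residual degree of freedom) and list medians with bounds were added after the data were seen. Alternatives were other normalizations, level filters and variance models, probe set means, a linear offset of 16, a 1.5-fold threshold, no time term and leaving out each time point. The genes and lists were chosen with earlier results of these data known. Besides the 10 genes, the text names list genes past the heme test, up to 3 more per list with the largest difference at 1 time point, and 3 nearest profiles per gene; Unc93b1, Ifnb1, Tbk1 and cell type markers were named after their values were seen. With 1 array per treatment and time, precision is limited by the number of arrays; figures were drawn in Python 3.11.15.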

Additional observations from a re-analysis of the deposited data

Results flagged for a closer look

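For 4 of the 10 genes the heme minus vehicle difference had opposite signs at 6 and 72 h, as deposited and after a second quantile normalization, median-centring and cyclic loess. Over all 11516 genes 4205 were higher with heme at 6 h and 6369 at 72 h, so a change of sign is common. The share of all genes with such a change is not given here, and the 4 genes are not shown to stand out. Tlr7 differed by -0.66 at 6 h and 0.09 at 72 h. Tlr13 differed by -0.47 at 6 h and 0.09 at 72 h. Tlr1 differed by -0.13 and 0.47, with both 6 h levels below the filter, so its 6 h sign is not shown. Ly96 differed by -0.14 and 0.26. Each value compares 1 array with 1 array. The change with log time was tested over all genes and did not pass for Tlr7, Tlr13, Tlr1 or Ly96 (limma, adjusted p = 0.438, 0.526, 0.498 and 0.637). Median-centring moved the median 6 h difference of all genes to -0.218, against -0.104 as deposited, and the 6 h difference of Tlr7 ran from -0.77 to -0.57 over these scalings.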

How the results depend on the processing

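Of the 2 genes that rose with heme, 0 passed without the time term (limma, adjusted p = 0.371 for Cd14 and 0.302 for Tlr2), and leaving out 1 time point gave 0 to 2, with 0 without the 24 h pair. Of the 5 genes that rose between 6 and 72 h, 1 passed without the 24 h pair, and Cd14 lost that call after cyclic loess (limma, adjusted p = 0.0514). Between 6 and 24 h 0 passed, and 1 without the 72 h pair (Tlr7; limma, adjusted p = 0.0402). The shares of all genes that pass these time comparisons with a pair left out are not given here. Leaving out a pair that a time comparison needs gives no value. Over the pathway lists 9 genes rose, against 3 without the time term and 1 to 15 with a pair left out, where 0 to 2 fell. Tnfaip3 lost its call after cyclic loess and Il1b with robust eBayes (limma, adjusted p = 0.0557 and 0.076), and Irak3 without the 72 h pair (0.0699). At 1.5-fold in place of 2-fold, 2, 2 and 1 of the 10 genes were higher with heme at 6, 24 and 72 h and 1, 0 and 0 lower. The shares of all genes at 1.5-fold are not given here, so these counts cannot be set against a background. Signs turned for Tlr4 (-0.015 after median-centring; -0.101 to 0.107 with a pair left out), Tlr13 (-0.251 to 0.025) and Ly96 (-0.053 to 0.148), with no value past the test. Over all genes 130 rose and 68 fell, against 115 and 36 after cyclic loess, 162 and 117 after median-centring, 17 and 1 without the time term, 322 and 199 from the later pairs alone and 11 and 1 when the 24 h arrays were dropped. Fits without a pair have 1 residual degree of freedom. Their prior degrees of freedom were 46.9, 6.04 and 8.57 without the 6, 24 and 72 h pair, against 7.17 in the main fit and 14.1 after median-centring. The cause of these changes in the number of calls was not tested. Heme and vehicle arrays are already matched by the time term, and the fit without that term is the unmatched one given above.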
